A study of Mus musculus with 12 samples.

Results

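The urea cycle genes comprised Cps1, Otc, Ass1, Asl, Arg1, Nags, Slc25a15 and Slc25a13, 8 of the 52636 genes in the table, taken by gene symbol. All 8 were measured in all 12 libraries, and all 8 were among the 16563 genes tested, which are those that reach 10 reads per 20 M in 3 or more libraries. In high-fat hepatocytes all 8 had a lower fitted level than in low-fat hepatocytes of the same mice, by 0.12 to 0.28 on the log2 scale. The difference passed the test for Slc25a15 and Arg1, beside 4.26% of all genes tested that passed as lower. Between PTPRK knockout and wild-type mice none of the 8 passed the test in either fraction. Only 0.00604% of all genes tested passed there in each fraction, so this absence says little about the 8 genes.

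The urea cycle turns ammonia and the nitrogen of aspartate into urea, and it is the main route by which mammals dispose of waste nitrogen. Its first steps run in the mitochondrial matrix and the later ones in the cytosol, so that ornithine, citrulline and aspartate must cross the inner mitochondrial membrane. The complete cycle is a property of hepatocytes, above all of those near the portal vein, while hepatocytes around the central vein capture leftover ammonia as glutamine.

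RNA sequencing was done on hepatocytes from fatty (steatotic) mouse livers, which had been split by their fat load on Percoll and by differential spins. The 4 groups of 3 libraries were wild-type (WT) low-fat, WT high-fat, PTPRK knockout (KO) low-fat and KO high-fat. Each of 3 WT and 3 KO mice gave 1 library of each fraction, and mice are numbered here by the replicate number in the labels. WT mice 1, 2 and 3 are the animals named WT1, WT5 and WT6, and KO mice 1, 2 and 3 those named KO2, KO4 and KO6. PTPRK is a receptor-type tyrosine phosphatase. The labels call the KO mice PTPRK KO and the controls Wild Type, and give liver as the tissue of all groups. Strain, age, sex, diet and the kind of knockout (allele, whole-body or in 1 cell type) are not given in the sources used here. Replicates are different mice, and the fractions of a mouse are not independent of each other.

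Values are reads scaled to 20 M (mega) per library. The estimated depth was lowest in KO high-fat library 3, at 15.1 M reads, and highest in WT low-fat library 1, at 25.0 M. Counting error of a single value was at most 2.69% for any of the 8 genes. Ptprk, the targeted gene, had 2758, 2883 and 2724 reads per 20 M in the WT low-fat libraries and 2174, 2578 and 2469 in the WT high-fat libraries. It had 1117, 1364 and 1333 in the KO low-fat and 1217, 1204 and 1179 in the KO high-fat libraries. Every KO library lay below every WT library, and no KO library lacked Ptprk reads. Of 8 listed hepatocyte markers 7 were found by their symbol, while the listed symbol Tf matched no gene. All 7, among them Alb and Apoa1, were abundant, with summed levels between 603373 and 774773 reads per 20 M. Since the libraries are bulk samples, fewer cells of a type and less RNA per cell cannot be told apart.

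Coordinates are those of the GENCODE M21 annotation on GRCm38, to which the gene identifiers were matched; the table itself holds none. Nags lies on chromosome 11 (102145513 to 102149477, plus strand), Cps1 on chromosome 1 (67123026 to 67231259, plus strand) and Otc on chromosome X (10252305 to 10321024, plus strand). Ass1 lies on chromosome 2 (31470207 to 31520672, plus strand), Asl on chromosome 5 (130011258 to 130029247, minus strand) and Arg1 on chromosome 10 (24915221 to 24927484, minus strand). Slc25a15 lies on chromosome 8 (22375551 to 22398597, minus strand) and Slc25a13 on chromosome 6 (6041218 to 6217173, minus strand). All are protein-coding genes, and the table gives 1 value per gene. Nags was the 1 member that overlapped another annotated gene, Gm11586 on the opposite strand; without a stated strand setting their reads cannot be told apart.

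Ass1 shares its coding sequence with a second row of the table. Gm5424, a processed pseudogene on chromosome 10 (62071123 to 62072362, plus strand), aligned to the Ass1 transcript over 1240 bases without a gap, from the first base of the start codon through all 1239 coding bases. The sequences differed at 6 bases (99.5% identical), with an identical run of up to 398 bases. Counted from the first base of the Ass1 start codon, the differences are T399C, T429C, A520T, G656C, T1011C and C1143T, the base of Ass1 first. The stretch with most differences, positions 375 to 434, shows how little separates the reads of both genes; capitals mark the 2 differing bases (GENCODE M21 transcripts, 5′ to 3′).
Ass1: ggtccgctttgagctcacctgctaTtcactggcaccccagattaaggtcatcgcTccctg
Gm5424: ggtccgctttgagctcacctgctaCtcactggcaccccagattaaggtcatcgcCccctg
Gm5424 was listed at 3.42% to 3.79% of the Ass1 value in every library. How the authors' counting divided shared reads is not given in the sources used here, so the levels of both are uncertain.

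Upstream windows were available from RefSeq (GRCm38.p6) for 5 members: Otc, Ass1, Nags, Slc25a15 and Slc25a13. The windows of the carriers Slc25a15 and Slc25a13 are shown because Slc25a15 passed the test between fractions and Slc25a13, of the same transporter family, did not. The Slc25a15 window is chr8:22398622-22398871 and the Slc25a13 window chr6:6217174-6217423, both on the minus strand and both the 250 bases before the RefSeq start. Capitals mark matches, on either strand, to the TATA box (TATAAA), the CCAAT box (CCAAT), the GC box (GGGCGG), the cyclic AMP response half-site (TGACG), the C/EBP core (TTGCNNAA), an HNF4 site (CAAAGTCCA) or the glucocorticoid receptor half-site (TGTTCT).
Slc25a15: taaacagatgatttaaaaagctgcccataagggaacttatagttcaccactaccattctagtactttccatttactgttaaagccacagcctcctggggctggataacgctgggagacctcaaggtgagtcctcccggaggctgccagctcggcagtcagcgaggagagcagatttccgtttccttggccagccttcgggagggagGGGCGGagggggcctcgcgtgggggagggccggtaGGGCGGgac
Slc25a13: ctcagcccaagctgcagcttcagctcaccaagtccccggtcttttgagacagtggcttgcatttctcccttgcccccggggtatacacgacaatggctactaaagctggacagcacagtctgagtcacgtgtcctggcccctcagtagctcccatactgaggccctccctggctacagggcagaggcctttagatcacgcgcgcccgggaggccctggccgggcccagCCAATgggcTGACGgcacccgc
The Slc25a15 window held GGGCGG at 2 places, and the Slc25a13 window held CCAAT and TGACG once each, with no overlap between matches. Nags, too, held GGGCGG at 2 places (chr11:102145263-102145512, plus strand, 1 match on each strand), while the Otc window (chrX:10252055-10252304, plus strand) and the 187 bases before Ass1 (chr2:31470020-31470206, plus strand) held none of the 7 motifs. The Ass1 window was shortened because annotated exon begins within it. Over the full 250 bases, with no such shortening, GGGCGG occurs in 32.7% of the 32851 windows of the same table, CCAAT in 33.8% and TGACG in 17.8%. The other motifs occur in 12.4% (TATAAA), 9.56% (TTGCNNAA), 0.384% (CAAAGTCCA) and 16.1% (TGTTCT) of them. GC content ranged from 43.6% in the Otc window to 75.4% in that of Ass1, beside a median of 52.4% over all windows. A match is a run of letters and was not tested as a binding site.

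The 8 genes together took between 0.978% and 1.2% of all reads of a library. Cps1, the carbamoyl phosphate synthetase that fixes ammonia in the matrix, made up 50% to 55% of that sum and was between the 7th and the 14th most abundant gene of its library. Per kilobase of annotated exon, the mean over 12 libraries was 20474 reads per 20 M for Cps1 and 17678 for Ass1, the synthetase that joins citrulline and aspartate. Arg1, the arginase that releases urea, followed with 8185. Asl, which splits argininosuccinate into arginine and fumarate, had 2726, and Otc, which makes citrulline in the matrix, had 2262. The ornithine carrier Slc25a15 had 2024, the aspartate-glutamate carrier Slc25a13 had 1503, and Nags, which makes the activator of Cps1, had 639 reads per 20 M per kilobase. By this measure Cps1 stood above Ass1 in all 12 libraries, though by as little as 1.06-fold, and the ranges of both genes over the libraries overlapped. The measure divides by all annotated exon bases of a gene, 5555 for Cps1 and 2414 for Ass1. The Ass1 transcript aligned to Gm5424 has only 1696 bases, so the order of Cps1 and Ass1 depends on the length used. Ranges also overlapped between Asl and Otc, Otc and Slc25a15, and Slc25a15 and Slc25a13, so that the order of these 4 genes is not fixed. Arg1 lay below Ass1 and above Asl, and Nags below Slc25a13, in every library and with no overlap.

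**Figure D1:**
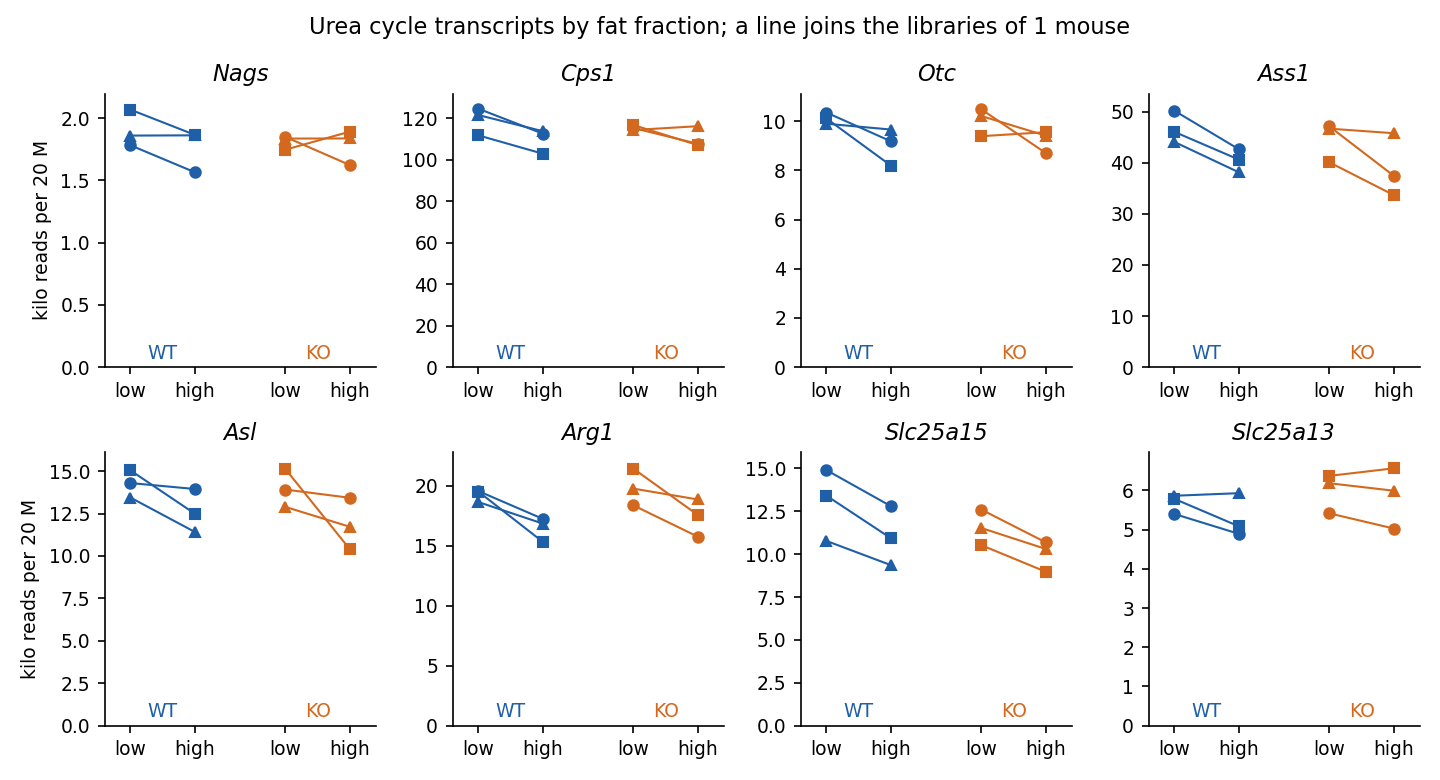
Levels of the 8 urea cycle genes in kilo (k) reads per 20 M (vertical axes from 0) in the low-fat and high-fat libraries of 3 WT (blue) and 3 KO (orange) mice; circles, squares and triangles are mice 1, 2 and 3, and a line joins the libraries of 1 mouse. The lines of Slc25a15, Arg1, Ass1 and Asl fall in all 6 mice, whereas those of Nags fall in 3.

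The comparison of fractions asks how urea cycle transcripts differed between the high-fat and the low-fat library of the same mouse. The fractions also differed in zonal genes and in markers of other liver cells, given below. The part of these in the differences of the urea cycle genes was not tested. Differences are those of log2(value + 2) after rescaling between libraries, fitted with a term for each mouse in limma and adjusted by the Benjamini-Hochberg method over all genes tested. All 8 fitted differences were below 0, with a median of -0.23 beside a median of -0.02 over all genes tested. Slc25a15 and Arg1 passed the adjusted threshold of 0.05, which makes 2 of 8 lower and none higher. Over all genes, 11.0% were called in this comparison and 4.26% were called lower. At an unadjusted p under 0.05, 5 of the 8 members were lower (Slc25a15, Arg1, Asl, Otc and Ass1), beside 14.7% of all genes. In the deposited values, Ass1, Asl, Arg1 and Slc25a15 were lower with high fat in 6 of 6 mice, a pattern that 5.93% of all genes tested had. The remaining 4 members were lower in 5 mice (Cps1 and Otc), 4 mice (Slc25a13) or 3 mice (Nags). The members are genes of 1 pathway measured in the same libraries and are not replicates of each other.

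Among the mitochondrial steps, Nags produces N-acetylglutamate, without which Cps1 is inactive. Nags had 1781, 2067 and 1859 reads per 20 M in the WT low-fat and 1564, 1864 and 1861 in the WT high-fat libraries. In KO mice it had 1848, 1746 and 1835 in low-fat and 1622, 1891 and 1836 in high-fat libraries. Mouse 1 of each genotype had 87.8% of its low-fat level in the high-fat library, KO mouse 2 was higher there, and the groups overlapped. The log2 difference over 6 mice was -0.12 (SE 0.0659, adjusted p = 0.266). It was -0.05 without KO mouse 1, -0.08 without WT mouse 1 and -0.07 with the deposited scaling alone.

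Cps1 had 124621, 111793 and 121581 reads per 20 M in the WT low-fat and 112589, 102924 and 113780 in the WT high-fat libraries. Its KO values were 115358, 116781 and 114376 in low-fat and 107689, 107065 and 116227 in high-fat libraries. High-fat levels were 90.3% to 93.6% of low-fat levels in 5 mice and 102% in KO mouse 3, and the groups of both genotypes overlapped. The log2 difference was -0.15 (SE 0.115, adjusted p = 0.439), with a 95% confidence interval from -0.41 to 0.12, the widest of the 8 members, and it was -0.09 with the deposited scaling alone. A fall of Cps1 as large as that of Slc25a15 therefore lies within its interval.

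Otc had 10352, 10111 and 9897 reads per 20 M in the WT low-fat and 9181, 8191 and 9660 in the WT high-fat libraries. In KO mice it had 10482, 9391 and 10211 in low-fat and 8700, 9555 and 9409 in high-fat libraries. All WT high-fat libraries lay below all WT low-fat libraries, while KO mouse 2 was higher in its high-fat library and the KO groups overlapped. The log2 difference over 6 mice was -0.20 (SE 0.0678, adjusted p = 0.0983), and -0.13 without KO mouse 1.

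In the cytosol, Ass1 had 50148, 46017 and 44045 reads per 20 M in the WT low-fat and 42605, 40584 and 38095 in the WT high-fat libraries. Its KO values were 47087, 40064 and 46644 in low-fat and 37403, 33640 and 45752 in high-fat libraries. Every mouse was lower in the high-fat library, at 79.4% of the low-fat level in KO mouse 1 but at 98.1% in KO mouse 3, and the WT groups did not overlap whereas the KO groups did. The log2 difference was -0.26 (SE 0.0914, adjusted p = 0.107). Gm5424, whose reads may in part be those of Ass1, had a log2 difference of -0.31 (SE 0.0778, adjusted p = 0.0437).

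Asl had 14294, 15038 and 13437 reads per 20 M in the WT low-fat and 13942, 12481 and 11406 in the WT high-fat libraries. In KO mice it had 13909, 15119 and 12887 in low-fat and 13425, 10383 and 11715 in high-fat libraries. All 6 mice were lower in the high-fat library, from 97.5% of the low-fat level in WT mouse 1 to 68.7% in KO mouse 2, which was the greatest within-mouse difference of any member. The groups of each genotype overlapped. The log2 difference was -0.27 (SE 0.0713, adjusted p = 0.0507), just outside the threshold.

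Arg1 had 19559, 19512 and 18644 reads per 20 M in the WT low-fat and 17237, 15314 and 16844 in the WT high-fat libraries. Its KO values were 18369, 21428 and 19766 in low-fat and 15754, 17559 and 18860 in high-fat libraries. Arg1 was lower with high fat in all 6 mice; the WT groups did not overlap, and the KO groups did. Arg1 fell by 0.26 on the log2 scale (SE 0.0656, adjusted p = 0.0411), to 83.3% of the low-fat level (95% confidence interval 75.0% to 92.5%).

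Of the carriers, Slc25a15 exchanges cytosolic ornithine for matrix citrulline. It had 14897, 13408 and 10769 reads per 20 M in the WT low-fat and 12792, 10921 and 9356 in the WT high-fat libraries. In KO mice it had 12595, 10521 and 11521 in low-fat and 10680, 8969 and 10298 in high-fat libraries. Its level ranged widely between WT mice, so the groups overlapped, yet each mouse was lower in its high-fat library, at 81.5% to 89.4% of its low-fat level. Slc25a15 fell by 0.28 on the log2 scale (SE 0.0553, adjusted p = 0.0187), to 82.4% of the low-fat level (95% confidence interval 75.4% to 90.0%).

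Slc25a13 brings aspartate out of the mitochondria for the Ass1 step. It had 5400, 5785 and 5865 reads per 20 M in the WT low-fat and 4892, 5084 and 5931 in the WT high-fat libraries. Its KO values were 5416, 6372 and 6184 in low-fat and 5028, 6565 and 5993 in high-fat libraries. WT mouse 3 and KO mouse 2 were higher in the high-fat library, the other 4 were lower, and the groups overlapped. The log2 difference was -0.13 (SE 0.055, adjusted p = 0.183), and it was -0.08 without KO mouse 1 and -0.07 with the deposited scaling alone. The difference between both carriers was not tested.

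The calls of Slc25a15 and Arg1 were lost under some alternatives. Without the mouse term neither was called (adjusted p = 0.155 for Slc25a15 and 0.0867 for Arg1), and leaving out WT mouse 1, 2 or 3 ended both calls, with adjusted p between 0.0655 and 0.119 for Slc25a15 and between 0.134 and 0.199 for Arg1. The call of Arg1 also ended without KO mouse 2 or 3, without the filter on low values and with median-of-ratios scaling, at adjusted p between 0.0527 and 0.0899. Without 1 KO mouse Slc25a15 remained called, with adjusted p of 0.0115, 0.0298 and 0.0498 without KO mouse 1, 2 and 3, and without KO mouse 1 Arg1 remained called as well (adjusted p = 0.0349). All 8 differences stayed below 0 under each of the 14 alternatives.

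**Figure D2:**
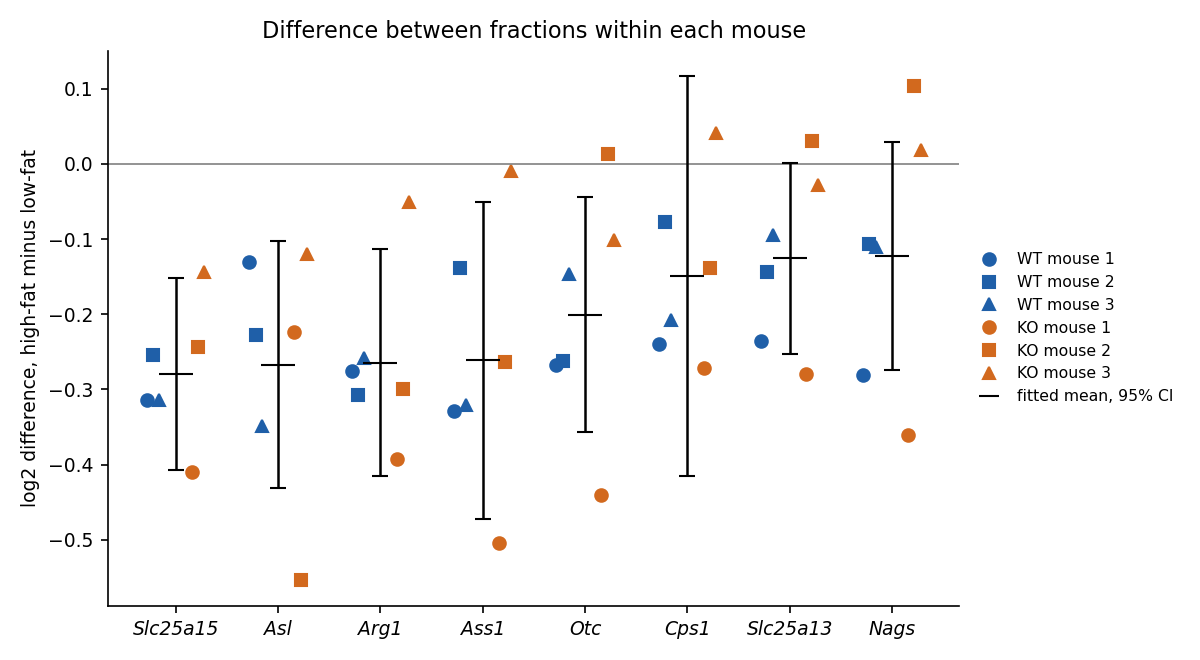
Log2 difference between the high-fat and low-fat library of each of 6 mice for the 8 urea cycle genes, after rescaling between libraries; blue symbols are WT and orange symbols KO mice, and black bars are the fitted mean with its 95% confidence interval. Most points lie below 0, KO mouse 3 (orange triangle) lies near 0 for most genes, and Slc25a15 has the narrowest spread of the 8 (SD 0.089).

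Mice differed in how far the whole set moved. The median log2 difference of the 8 genes was -0.27, -0.19 and -0.23 in WT mice 1, 2 and 3, and -0.38, -0.19 and -0.04 in KO mice 1, 2 and 3. KO mouse 3, whose high-fat library was the shallowest, moved least. Which mouse moved most depends on the rescaling: KO mouse 1 on the rescaled scale, but WT mouse 2 in the deposited values, where the median high-fat level was 85.5% of the low-fat level, beside 86.8% in KO mouse 1. The summed level of the 8 genes was 241052, 223731 and 226097 reads per 20 M in the WT low-fat and 214802, 197363 and 206933 in the WT high-fat libraries. The KO sums were 225064, 221422 and 223424 in low-fat and 200301, 195627 and 220090 in high-fat libraries. In these deposited values each high-fat sum lay below every low-fat sum of its genotype, and Cps1 supplied 50% to 55% of each sum. In KO mice this separation does not outlast the rescaling. The rescaling divides by 0.961 in KO high-fat library 3 and by 1.01 in KO low-fat library 2, which puts the former above the latter.

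Within WT mice alone, none of the 8 members was called, with log2 differences from -0.29 (Slc25a15) to -0.16 (Slc25a13) and adjusted p from 0.115 to 0.576. In this smaller comparison 0% of all genes were called. At an unadjusted p under 0.05, 4 of the 8 were lower, beside 9.29% of all genes. Otc, Ass1 and Arg1 had WT groups that did not overlap, 3 of 8 beside 3.51% of all genes lower without overlap. Within KO mice none of the 8 was called either, with differences from -0.30 (Asl) to -0.08 (Nags), while 1.7% of all genes were called. Among KO mice 3 of the 8 were lower at an unadjusted p under 0.05, beside 6.45% of all genes, and no member had groups without overlap, beside 2.64% of all genes. These values rest in part on KO mouse 1. Without it the median of the 8 went from -0.21 to -0.09, Ass1 from -0.26 to -0.14, Otc from -0.18 to -0.04 and Cps1 from -0.12 to -0.05, while Nags (0.06) and Slc25a13 (0.002) were no longer below 0. Asl went from -0.30 to -0.17 without KO mouse 2, and within WT mice Nags went from -0.17 to -0.09 and Slc25a13 from -0.16 to -0.10 without WT mouse 1. The test of the difference between the genotypes in the fraction effect called none of the 8 and 0% of all genes. Its estimates ran from -0.06 (Asl) to 0.09 (Nags), with 95% confidence intervals between -0.48 and 0.58, and none of the 8 had an unadjusted p under 0.05.

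The comparison of KO with WT asks whether loss of PTPRK changed the urea cycle transcripts. In the low-fat libraries the log2 differences ran from -0.16 for Slc25a15 (95% confidence interval -0.47 to 0.15) to 0.08 for Slc25a13 (-0.21 to 0.37). In the high-fat libraries they ran from -0.13 for Slc25a15 (-0.44 to 0.18) to 0.15 for Slc25a13 (-0.14 to 0.43). None of the 8 was called in either fraction, with an adjusted p of 1 throughout, and none had an unadjusted p under 0.05. Only 0.00604% of all genes were called in each fraction, and that 1 gene was Ptprk, with log2 differences of -1.13 (SE 0.0936, adjusted p = 0.00131) and -0.99 (SE 0.0936, adjusted p = 0.00506). The KO and WT libraries of all 8 members overlapped in both fractions, beside 4.97% (low-fat) and 4.51% (high-fat) of all genes that had no overlap in one or the other direction.

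Slc25a15 and Slc25a13 had the largest estimates in opposite directions in both fractions, with confidence intervals that include 0. The differences of Cps1 were -0.04 (-0.38 to 0.30) and 0.01 (-0.32 to 0.35), and those of Arg1 0.05 (-0.20 to 0.30) and 0.08 (-0.17 to 0.33), in the low-fat and high-fat libraries. Over the 8 members the confidence intervals reached from -0.47 to 0.37 in low-fat and from -0.44 to 0.43 in high-fat libraries. Changes outside these bounds were not seen for any member, and smaller differences could not be resolved with 3 mice a group.

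**Figure D3:**
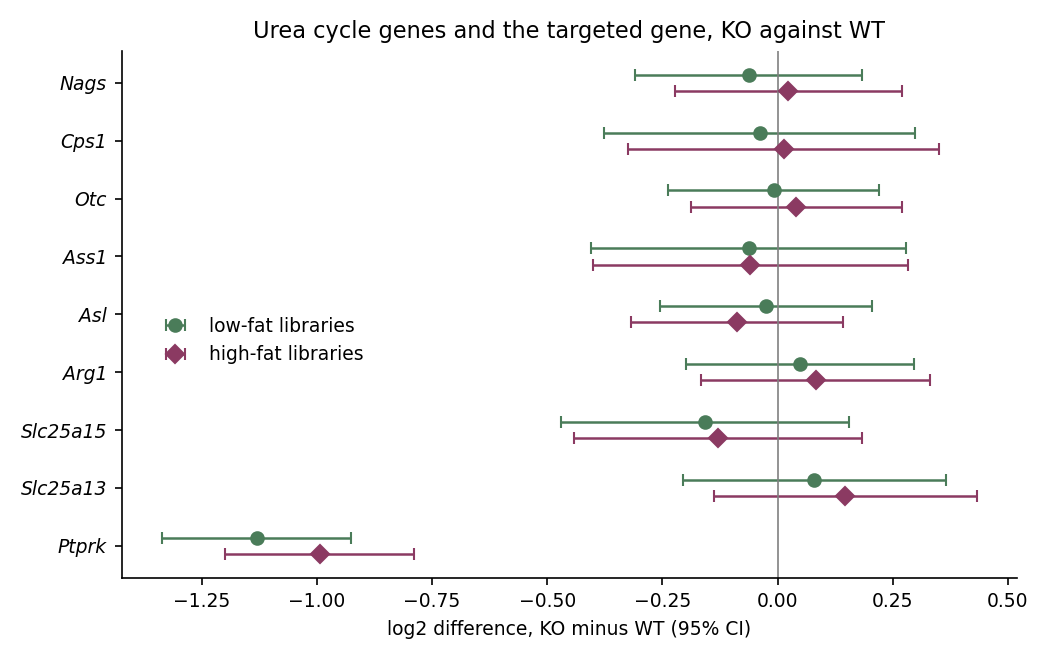
Log2 difference between KO and WT libraries, with 95% confidence intervals, for the 8 urea cycle genes and Ptprk in low-fat (green circles) and high-fat (purple diamonds) libraries. The intervals of all 8 genes cross 0, and those of Ptprk lie between -1.34 and -0.79.

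Across the 12 libraries the members varied together to an uneven degree. Pearson correlations of their log2 levels were above 0 for 26 of the 28 pairs, with a median of 0.55. The highest were between Cps1 and Otc (0.86) and between Ass1 and Slc25a15 (0.83). The lowest was between the carriers Slc25a15 and Slc25a13 (-0.21). These values describe 12 libraries that come as pairs from 6 mice and share their scaling, and part of each correlation is the difference between fractions itself.

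The genes most like each member were sought among 10517 genes whose mean reached 100 reads per 20 M. The closest to Ass1 was its pseudogene Gm5424 (r = 0.98), and the closest to Nags was the overlapping Gm11586 (r = 0.94). Reads may be shared in both pairs, and the part of such reads in these correlations was not tested. Orm1 (0.93) came next for Ass1 and Faah (0.94) for Nags. Cps1 was most like Babam2 (0.96) and Uox (0.95), the latter the urate oxidase of peroxisomes. Otc was most like Isoc1 and Pecr (both 0.98). Arg1 was most like Amdhd1 and Hal (both 0.94), which act in histidine breakdown, and Asl was most like Ftcd (0.93), a later enzyme of the same pathway, and Stra6l (0.91). Slc25a13 was most like Abhd14b (0.985) and Ctsh (0.978). Slc25a15 was most like Acly (0.97), the ATP citrate lyase, followed by a row whose symbol the table shows as a date (0.95). The mean profile of the 8 was most like Ceacam1, Gls2 and Fbp1 (all 0.97), Uroc1 (0.96) and Cbs (0.96). Of these, Acly fell by 0.74 on the log2 scale in the high-fat libraries (SE 0.115, adjusted p = 0.0081) and Hal fell by 0.71 (SE 0.0704, adjusted p = 0.00381), each by more than any urea cycle gene. Others were not called, among them Ctsh (-0.10, adjusted p = 0.281) and Gm11586 (-0.07, adjusted p = 0.652). All were chosen for likeness to members over the same libraries, which partly fixes their difference between fractions. Their falls are therefore no separate support.

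Genes that supply ammonia and substrates to the cycle were taken from a list of 15, all of them tested. In the high-fat libraries of 6 mice 4 were called lower and none higher, beside 4.26% of all genes called lower. The median log2 difference of the list was -0.16. The 4 were Gls2, the liver glutaminase (-0.68), Got1, the cytosolic aspartate aminotransferase (-0.43), Slc25a12, a second aspartate-glutamate carrier (-0.29), and Slc25a22, a glutamate carrier (-0.22). Gls2 ranged from 13785 to 15434 reads per 20 M in low-fat and from 8627 to 10012 in high-fat libraries of WT mice, and from 13866 to 15241 and from 8463 to 11568 in those of KO mice, without overlap in either genotype. Glud1, the glutamate dehydrogenase that releases ammonia in the matrix, had a difference of -0.01 (SE 0.0714, adjusted p = 0.945). The largest positive differences in the list, those of Slc7a1 (0.70) and Aldh18a1 (0.47), were not called. Slc7a1 passed the filter on low values only through its high-fat libraries.

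Of 19 listed genes that use arginine, ornithine or urea outside the cycle, 11 passed the filter on low values and 5 were called, all higher, beside 6.76% of all genes called higher. Gatm, which starts creatine synthesis from arginine, rose by 2.0 on the log2 scale, from a range of 11 to 42 to one of 53 to 273 reads per 20 M over both genotypes. Ddah2, which degrades methylated arginines, rose by 1.46 and Nos3, the endothelial nitric oxide synthase, by 1.33. All 3 had low levels, at most 273 reads per 20 M in any library. Ddah2 had 6 to 16 reads per 20 M in the WT low-fat and 1 to 10 in the KO low-fat libraries. It passed the filter on low values only through its high-fat libraries, so its place among the 5 called genes is no support. Oat, the ornithine aminotransferase of pericentral hepatocytes, rose by 0.80 and Aqp9, a channel for glycerol and urea, by 0.34. Arg2, the second arginase, had a difference of 0.12 (SE 0.333, adjusted p = 0.737).

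Of 17 regulators of urea cycle genes or enzymes, all tested, 3 were called lower and none higher, beside 4.26% of all genes called lower. The 3 were Ppargc1a, a coactivator of the fasting response (-0.39), Hnf4a, a hepatocyte transcription factor (-0.28), and Onecut1, another liver transcription factor (-0.23). The median of the list was -0.08. Cebpa, a factor that Cps1 and other urea cycle genes depend on, had a difference of -0.24 (SE 0.0793, adjusted p = 0.0943). None of the genes of these 3 lists, nor of the zonal lists that follow, was called between KO and WT in either fraction. Only 0.00604% of all genes were called there, so the absence of a call says little about these lists.

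Since the cycle is strongest near the portal vein, zonal genes were set beside it. Of 14 other periportal genes 10 were called lower in the high-fat libraries and none higher, beside 4.26% of all genes called lower. The median log2 difference of this list was -0.54. Aldh1b1 fell by 1.15, Hal by 0.71 and Sdsl by 0.70 on the log2 scale. Of 16 pericentral genes 12 were called higher and none lower, beside 6.76% of all genes called higher. Their median was 0.75, led by Lgr5 (1.11), Cyp2c29 (1.10) and Aldh3a2 (0.99). The median of the 8 urea cycle genes, -0.23, lay between that of all genes and that of the other periportal genes, and the most negative urea cycle value, -0.28, was smaller in size than the median of the periportal list. Gls2 stands in both the supply and the periportal list, and Oat in both the fates and the pericentral list. Between KO and WT, 14 of the 16 pericentral genes had a lower and 2 a higher fitted level in KO mice, in each fraction. Of all genes tested, 51.2% (low-fat) and 53.4% (high-fat) had a lower fitted level in KO mice. The median log2 differences of the pericentral list were -0.475 in low-fat and -0.335 in high-fat libraries. Its genes were measured in the same libraries and are not replicates of each other, and the list was not tested as a set.

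**Figure D4:**
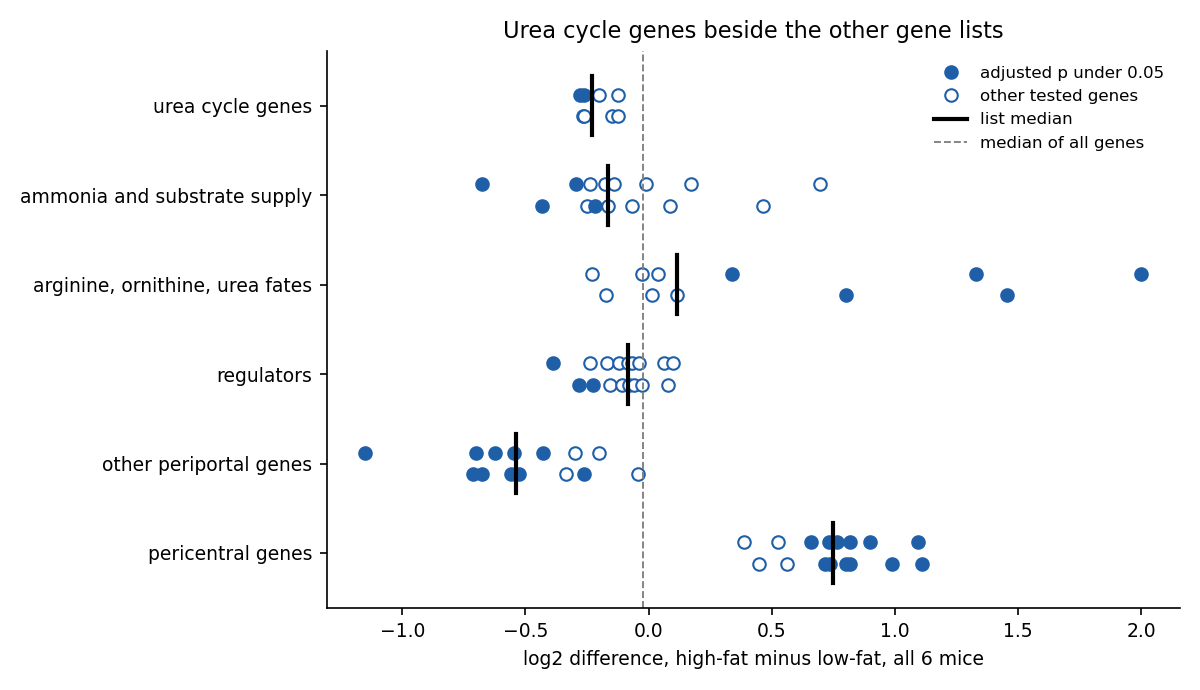
Log2 difference, high-fat minus low-fat, over all 6 mice (horizontal axis) for each tested gene of 6 lists; filled points have an adjusted p under 0.05, black bars are list medians and the dashed line is the median of all genes. The urea cycle genes lie close together between -0.28 and -0.12, to the right of most other periportal genes and far to the left of the pericentral genes.

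Markers of other liver cells moved with the fat fraction. All 8 stellate markers, 8 of 9 Kupffer cell and macrophage markers and all 8 sinusoidal endothelial markers were called higher in the high-fat libraries. Over all genes, 6.76% were called higher. The median log2 differences of the 3 lists were 2.60, 2.25 and 1.74. The stellate marker Col1a1 and the macrophage marker Marco passed the filter on low values only through their high-fat libraries. These 2 genes therefore add no support to the counts. Summed stellate markers ranged from 278 to 709 reads per 20 M in the WT low-fat and from 2191 to 3776 in the WT high-fat libraries, and from 152 to 658 and from 2545 to 2995 in those of KO mice. Summed Kupffer and macrophage markers ranged from 631 to 1277 and from 2160 to 10671 in WT, and from 450 to 722 and from 1976 to 9307 in KO mice. Summed endothelial markers ranged from 2585 to 2635 and from 5523 to 14389 in WT, and from 1088 to 2233 and from 4602 to 9341 in KO mice. All 3 sums were higher in the high-fat library of all 6 mice, and no marker of these lists was at 0 in all libraries. Between KO and WT none of these markers was called, beside 0.00604% of all genes in each fraction. In the low-fat libraries 7 of 8 stellate, 9 of 9 macrophage and 8 of 8 endothelial markers had lower fitted levels in KO mice. In the high-fat libraries these counts were 4, 7 and 8. Of all genes, 51.2% (low-fat) and 53.4% (high-fat) were lower. The median log2 differences of the 3 lists were -0.469, -0.796 and -0.681 in low-fat and 0.01, -0.115 and -0.421 in high-fat libraries.

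None of the 7 hepatocyte markers was called, and their sums ranged from 619557 to 774773 and from 603373 to 725158 reads per 20 M in the low-fat and high-fat libraries of WT mice, and from 662000 to 726344 and from 608749 to 767935 in those of KO mice. Of 7 mitochondrially encoded transcripts 2 were called, both higher, beside 6.76% of all genes called higher. The sums of the 7 ranged from 123335 to 161558 (low-fat) and from 160510 to 337433 (high-fat) in WT mice. In KO mice they ranged from 130420 to 168621 and from 172414 to 235504. Of the other marker lists, 1 of 2 tested biliary genes (Sox9) and 1 of 4 tested blood genes (Alas2) were called lower, beside 4.26% of all genes. Neither 1 tested lymphocyte gene nor 4 tested nuclear-retained transcripts were called. The part of these lists in the differences of the urea cycle genes was not tested.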

How the data were processed

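The unit of the deposited table is recorded as a score, because the authors brought every library's gene counts to a total of 20 M (mega) and rounded up; this was read from the values, since no header states it. The aligner, counter, annotation and strandedness are not given in the sources used here; the submitters' processing notes name the genome build mm9. Of 52636 gene identifiers, 52403 are in GENCODE M21, which gave coordinates and exon lengths. Depth was estimated from gaps in the low values, with weak support in KO high-fat library 1, and a level of 3 reads corresponds to 2.4 to 3.98 reads per 20 M.

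As the values are not raw counts, the tests were run on log2(value + 2), after rescaling by trimmed means of M values, for genes with at least 10 in at least 3 libraries, in limma 3.58.1 (R 4.3.3) with a trend on intensity. Tests are two-sided, and a call needs an adjusted p under 0.05. KO and WT were compared with 1 mean per group over all 12 libraries. The spread in this fit treats the low-fat and high-fat library of a mouse as independent. With a same-mouse correlation in the limma fit, Ptprk had an adjusted p of 0.00118 in low-fat and 0.00464 in high-fat libraries, and no member was called. Fractions were compared with a term for each mouse, since the labels name the same mouse for both fractions. Same-mouse deviations from group means correlated at 0.47 to 0.58 in WT and at -0.01 to 0.46 in KO mice. Same-numbered WT and KO libraries, from different mice, correlated at 0.25 to 0.40 in the low-fat and -0.17 to 0.49 in the high-fat libraries. The code was tested on simulated data. The alternatives are listed with their effect in the closing section.

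The members and all gene lists were chosen with earlier results of these data known. Named genes are the members, Ptprk, up to 8 called list genes with the largest change per comparison, up to 3 per list with the largest change, and the genes most like each member. Got1, Slc25a12, Slc25a22, Glud1, Oat, Aqp9, Arg2, Onecut1, Gm5424's test, Sox9, Alas2, Col1a1 and Marco were named after their values were seen.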

Additional observations from a re-analysis of the deposited data

How the results depend on the processing

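No member was called between KO and WT, within KO mice or in the interaction under any alternative run, and all 8 differences between fractions over 6 mice stayed below 0. The number of members called over 6 mice, 2 as reported, was 1 with median-of-ratios size factors, 1 with no filter on low values, 0 with no replicate block (no term for the mouse), 2 with the deposited scaling alone, 2 with either other pseudocount, 3 with a same-mouse correlation and 3 with scaling factors from all genes (Asl gained in both, adjusted p = 0.0184 and 0.0401), and 0 to 3 when each mouse was left out. Within WT mice 1 member, Slc25a15, was called when only the libraries compared were fitted (adjusted p = 0.0374), and the median of the 8 members moved from -0.23 to -0.18 with the deposited scaling alone. Over 6 mice that median ranged from -0.27 to -0.17 over 14 alternatives, and within KO mice from -0.27 to -0.09 over 12, where Nags (0.06) and Slc25a13 (0.002) were above 0 without KO replicate 1. Counts of all genes called varied more: over 6 mice 1825 became 956 without the mouse block and 552 to 2665 when a mouse was left out. Within KO mice 282 became 115 without the filter, 139 without the block, 544 with a same-mouse correlation, 0 with only the libraries compared and 0 to 93 when a mouse was left out. Within WT mice 0 became 173 with the deposited scaling, 194 with a pseudocount of 10, 409 with a same-mouse correlation and 1073 with only the libraries compared; scaling factors from all genes, an alternative chosen after seeing the data, gave 195. The causes were not tested. A replicate block in the KO against WT comparisons changed no call. Ptprk, called in both fractions, lost its call in 5 of 15 alternatives in the high-fat and in 1 of 15 in the low-fat libraries. The highest adjusted p, 0.703 and 0.0508, came with only the libraries compared.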
